A study of Mus musculus with 14 samples.

Results

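Kupffer cells are the resident macrophages of the liver, and the 10 genes described here mark their identity: Clec4f, Vsig4, Timd4, Marco, Cd5l, Cd163, Folr2, Csf1r, Spic and Id3. They were taken by symbol from a table of 25212 genes, each had 1 entry, and all 10 passed the filter on low counts, as did 14252 genes in all. RNA was measured in 14 livers of male C57BL/6 mice made obese on a high-fat diet (HFD), which all groups received before and after surgery, and no transgene or targeted allele was named for any group. The DIO group (n = 5) had no surgery, the GB-IL group (n = 4) had the gallbladder joined to the ileum with the common bile duct ligated, and the RYGB group (n = 5) had a Roux-en-Y gastric bypass. The labels place every liver at 8 weeks, give no age, and number the livers within a group. No sham-operated liver was among those sequenced, so that effects of anaesthesia and operation, of weight loss and of rerouted bile cannot be told apart.

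Kupffer cells line the liver sinusoids, where they clear bacteria, complement-coated particles, ageing red cells and apoptotic cells from portal blood. Most are seeded before birth and renew themselves in place, and when they are lost, monocytes from the blood can enter the niche and take on the same genes, with Timd4 among the last to be acquired. CSF1, signalling through the receptor that Csf1r encodes, keeps them alive, and transcription factors such as Id3, Spi-C and LXRα shape their identity. Because these are whole livers, fewer Kupffer cells and less RNA of a gene per Kupffer cell cannot be told apart at any value below.

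Total counts per liver lay between 18223135 and 28656631, and no pair of libraries within a group agreed within counting noise. GB-IL livers 1 and 2 stood apart from the others on the first principal component of all genes, with scores of 134 and 106 against -45.7 to 20.1 in the other 12, and GB-IL liver 4 (-35.3) lay among the DIO livers (-45.7 to -21.9). Summed hepatocyte markers reached 84501 to 156981 CPM (counts scaled to the library total), as a liver label requires, and the fewest counts of any of the 10 genes in a liver was 38, for Spic. In what follows single genes are given as CPM of library sizes scaled by TMM, edgeR's correction for composition, and differences as log2 fold changes from edgeR's quasi-likelihood model, fitted once to all livers. A gene is called at a Benjamini-Hochberg adjusted p under 0.05 over all genes tested.

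Per length of transcript, Cd5l and Clec4f were the most abundant of the 10 in DIO livers, at 70.7 ± 24 and 63.9 ± 11.1 RPKM (reads per kilobase of exon, scaled to library size; mean ± SD, n = 5), which overlapped within their SD. Vsig4 followed at 22.1 ± 4.23 RPKM, and the next 4 did not separate from each other: Marco at 13.9 ± 10.55, Id3 at 12.4 ± 3.78, Csf1r at 12.2 ± 2.17 and Folr2 at 10.4 ± 3.32 RPKM. Marco spread so widely that it also overlapped Vsig4 above and Cd163 and Timd4 below. Cd163 at 4.80 ± 1.53 and Timd4 at 4.44 ± 1.59 RPKM lay below the others of these and within each other's SD. Spic, at 0.865 ± 0.250 RPKM, was the lowest, below the SD range of the other 9. In GB-IL livers Marco rose to a mean of 121 ± 107 RPKM (n = 4), beside Cd5l at 127 ± 98.9 RPKM.

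After GB-IL, 2 of the 10 genes rose against DIO and none fell. The scavenger receptor Marco rose the most, and the transcription factor Spic rose with it. Over all genes tested, 3.26% were called in this comparison in either direction. All 10 fold changes were positive, with a median log2 fold change of 0.74 against 0.04 over all genes, and 5 of 10 had an unadjusted p under 0.05: Marco, Spic, Id3, Csf1r and Vsig4. The groups of livers did not overlap for 2 of 10 genes, again Marco and Spic and both higher in GB-IL, where 2.67% of all genes were higher and 1.51% lower without overlap. Clec4f and Cd163 had fold changes of 0.00. After RYGB, none of the 10 was called against DIO (edgeR), and 0% of all genes were.

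**Figure D1:**
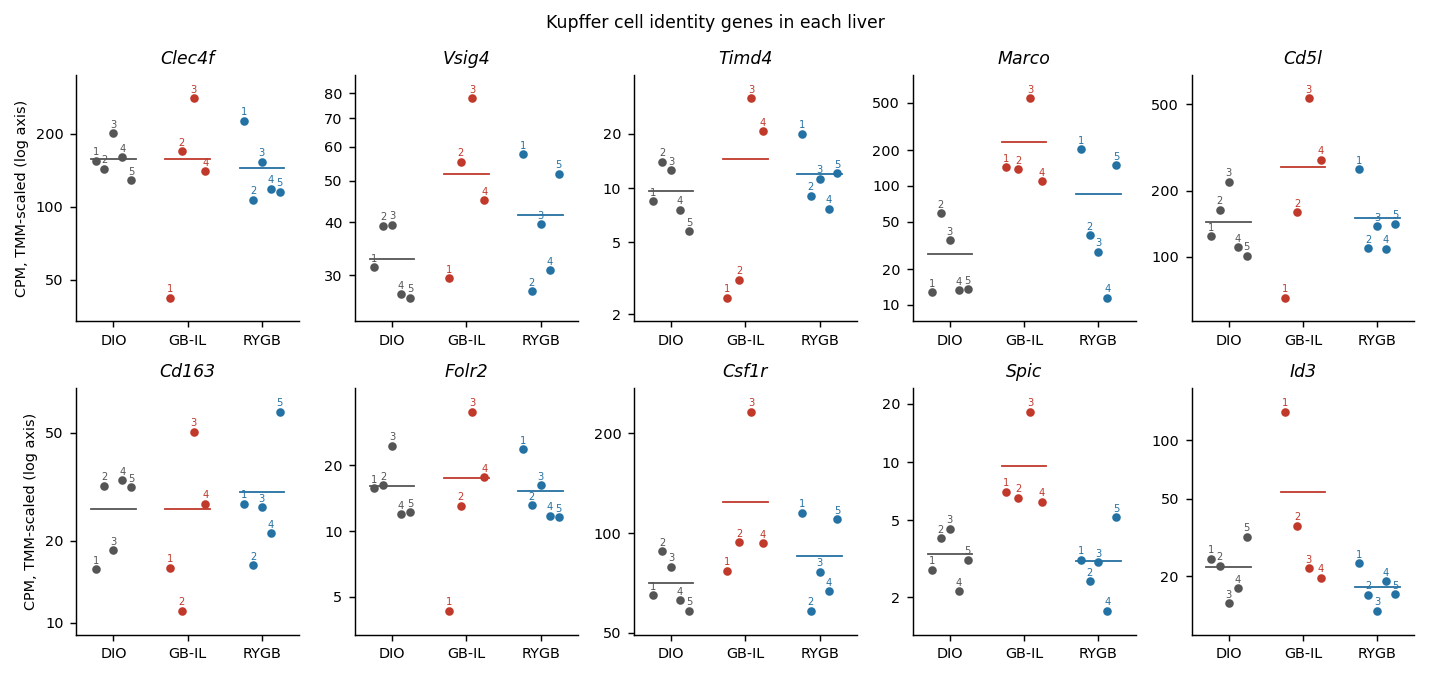
Each panel plots 1 gene in CPM (TMM-scaled, log axis) against group, a point per liver with its number and a line at the group mean (DIO and RYGB n = 5, GB-IL n = 4). All 4 GB-IL livers lie above every DIO liver for Marco (at least 109 against at most 58.8) and Spic (at least 6.23 against at most 4.53), and GB-IL liver 1 is the lowest point for Clec4f at 42.2 and the highest for Id3 at 140.

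Clec4f encodes a C-type lectin that in mice is made by Kupffer cells almost alone, and it is a common choice for marking them (ENSMUSG00000014542, chr6:83644542-83656187, minus strand). In DIO livers 1 to 5 Clec4f was at 155, 144, 202, 161 and 129 CPM. In GB-IL livers 1 to 4 it was at 42.2, 170, 280 and 141 CPM, and in RYGB livers 1 to 5 at 227, 107, 153, 119 and 116 CPM. GB-IL thus held both the lowest liver of all 14 (GB-IL 1) and the highest (GB-IL 3), a 6.64-fold range against 1.56-fold in DIO, and the groups overlapped. Against DIO the log2 fold change was 0.00 after GB-IL (95% interval -0.82 to 0.82; adjusted p = 0.998) and -0.13 after RYGB (-0.91 to 0.65).

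Vsig4 encodes the complement receptor CRIg, which takes up C3-coated bacteria (ENSMUSG00000044206, chrX:96247203-96293438, minus strand). It lay at 31.4, 39.2, 39.4, 27.1 and 26.6 CPM in DIO and at 29.5, 55.4, 77.8 and 45.0 CPM in GB-IL, where 3 of 4 livers were above every DIO liver and GB-IL 1 was within their range. RYGB livers were at 57.7, 27.6, 39.5, 30.8 and 51.9 CPM, with numbers 1, 3 and 5 above every DIO liver, though number 3 only by 39.5 against 39.4 CPM. Against DIO it differed by 0.67 ± 0.275 (log2, SE) after GB-IL, with an unadjusted p of 0.0288 and an adjusted p of 0.171, and 0.34 (interval -0.21 to 0.90) in RYGB.

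Timd4 encodes TIM-4, a receptor for phosphatidylserine on dying cells that marks Kupffer cells of embryonic origin (ENSMUSG00000055546, chr11:46810800-46844332, plus strand). DIO livers held 8.43, 13.97, 12.5, 7.58 and 5.77 CPM. The 4 GB-IL livers split, with 2.47 and 3.11 CPM in livers 1 and 2, the lowest of all 14, and 31.4 and 20.7 CPM in livers 3 and 4, the highest of all 14. RYGB livers held 19.96, 9.07, 11.3, 7.69 and 12.1 CPM, between those extremes. No difference in mean was detected across so wide a spread: GB-IL differed from DIO by 0.58 on the log2 scale (interval -0.67 to 1.83, adjusted p = 0.538), and RYGB by 0.31 (-0.88 to 1.5). The 2 livers that were low are the 2 that stood apart on the first principal component.

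Marco encodes a scavenger receptor with a collagenous stalk that binds bacteria and particles and can be induced by microbial products (ENSMUSG00000026390, chr1:120474538-120505024, minus strand). Marco was at 12.8, 58.8, 35.1, 13.3 and 13.5 CPM in DIO livers and at 144, 138, 542 and 109 CPM in GB-IL livers. RYGB livers were at 202, 38.6, 27.9, 11.5 and 149 CPM. Every GB-IL liver was above every DIO liver, and RYGB split, with livers 1 and 5 in the GB-IL range, livers 2 and 3 in the DIO range and liver 4 the lowest of all 14. The rise from DIO to GB-IL was 3.13 ± 0.799 on the log2 scale (interval 1.42 to 4.83, adjusted p = 0.0461). In RYGB against DIO it was 1.69 ± 0.739 (interval 0.11 to 3.26), with an unadjusted p of 0.0377 and an adjusted p of 0.547.

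Cd163, the receptor for haemoglobin bound to haptoglobin, did not separate the groups (ENSMUSG00000008845, chr6:124304656-124330527, plus strand). It ranged from 15.8 to 33.4 CPM in DIO (median 31.5), from 11.1 to 50.4 CPM in GB-IL (median 21.7) and from 16.3 to 59.7 CPM in RYGB (median 26.6). The highest value was that of RYGB liver 5, and the lowest that of GB-IL liver 2. Log2 fold changes against DIO were 0.00 in GB-IL (interval -0.92 to 0.93) and 0.21 in RYGB (-0.66 to 1.08). RYGB liver 5 also held the highest summed endothelial markers (746 CPM of the total count, against 247 to 397 in the other 13 livers) and neutrophil markers of 154 CPM, and the part of these in its Cd163 value was not tested.

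Folr2 encodes folate receptor beta, a marker of resident macrophages in several tissues (ENSMUSG00000032725, chr7:101839988-101857194, minus strand). Its exons overlap those of Gm10602 on the other strand, and the strand setting of the counting is not given in the sources used here, so that its counts may hold reads of both. Folr2 ranged from 11.9 to 24.6 CPM in DIO (median 15.7), from 4.31 to 35.2 CPM in GB-IL (median 15.3) and from 11.6 to 23.7 CPM in RYGB (median 13.2), with GB-IL 1 the lowest liver and GB-IL 3 the highest. On the log2 scale GB-IL differed from DIO by 0.12 (interval -0.79 to 1.03) and RYGB by -0.08 (-0.94 to 0.78).

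Cd5l encodes AIM, a secreted protein that macrophages release and that supports their survival (ENSMUSG00000015854, chr3:87357881-87371073, plus strand). It lay at 124, 164, 220, 110 and 101 CPM in DIO, at 65.0, 159, 530 and 278 CPM in GB-IL, and at 251, 109, 138, 109 and 142 CPM in RYGB. GB-IL livers 3 and 4 were above every DIO liver, GB-IL 2 was within the DIO range and GB-IL 1 below it. GB-IL differed from DIO by 0.84 (log2, interval -0.13 to 1.82, adjusted p = 0.272) and RYGB by 0.06 (-0.87 to 0.98).

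Csf1r encodes the receptor for CSF1 and IL-34 and is expressed by monocytes and macrophages of all kinds, so that it marks the lineage more than the Kupffer cell (ENSMUSG00000024621, chromosome 18, plus strand, with exons overlapping Hmgxb3 on the other strand). DIO livers held 64.8, 88.1, 79.1, 62.7 and 58.3 CPM and GB-IL livers 77.1, 93.9, 232 and 93.2 CPM. RYGB livers held 115, 58.3, 76.5, 66.9 and 110 CPM. Of the 4 GB-IL livers 3 were above every DIO liver and GB-IL 1 lay among them. Its log2 difference from DIO was 0.81 ± 0.310 after GB-IL (unadjusted p = 0.0191, adjusted p = 0.144) and 0.27 (interval -0.35 to 0.90) in RYGB.

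Spic encodes Spi-C, a transcription factor of the PU.1 family that haem induces and that is known from iron-recycling macrophages of spleen and bone marrow (ENSMUSG00000004359, chr10:88674772-88685015, minus strand). Spic was low in every DIO liver, at 2.77, 4.03, 4.53, 2.15 and 3.12 CPM, and reached 7.04, 6.55, 18.2 and 6.23 CPM in GB-IL. RYGB livers were at 3.12, 2.42, 3.03, 1.70 and 5.19 CPM. The 4 GB-IL livers were above all 10 others. Relative to DIO it rose by 1.52 ± 0.377 on the log2 scale after GB-IL (interval 0.71 to 2.32, adjusted p = 0.0426) and stood at -0.10 (-0.87 to 0.67) after RYGB.

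Id3 encodes an inhibitor of basic helix-loop-helix factors that Kupffer cells need, and it is also expressed in endothelium and other cells (ENSMUSG00000007872, chr4:136143497-136145755, plus strand). It lay at 24.6, 22.6, 14.6, 17.4 and 32.0 CPM in DIO, at 140, 36.3, 22.0 and 19.7 CPM in GB-IL, and at 23.3, 16.1, 13.3, 18.8 and 16.2 CPM in RYGB. GB-IL livers 1 and 2 were above every DIO liver and livers 3 and 4 within their range. The GB-IL difference from DIO of 1.29 ± 0.470 (log2, unadjusted p = 0.0151, adjusted p = 0.130) was 0.22 without GB-IL liver 1 (adjusted p = 0.707). That liver was the lowest of all for Clec4f, Timd4, Cd5l and Folr2, and it had the highest summed stellate markers (878 CPM, against 241 to 806 in the others) and cholangiocyte markers (324 CPM, against 47.5 to 262), whose part in its Id3 value was not tested.

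The calls of Marco and Spic were close to the threshold. With either GB-IL 1, GB-IL 2 or GB-IL 3 left out, neither was called. Without GB-IL 1 the log2 difference of Marco was 3.28 (adjusted p = 0.0902) and that of Spic 1.62 (adjusted p = 0.0845), and without both GB-IL 1 and GB-IL 2, the livers that stood apart, they were 3.58 (adjusted p = 0.137) and 1.85 (adjusted p = 0.116). Without GB-IL 3 they were 2.29 (adjusted p = 0.0883) and 0.99 (adjusted p = 0.0869). Without any 1 DIO liver neither gene was called, and no gene of the table was. In the fit with GB-IL 4 left out Marco, Spic and Id3 were called, as were 24.6% of all genes.

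**Figure D2:**
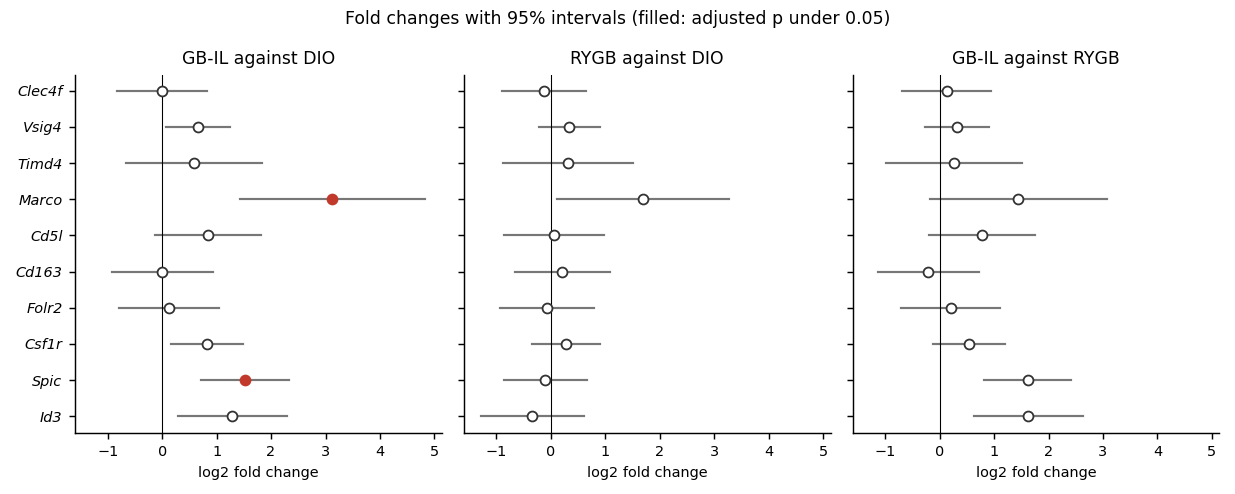
Log2 fold changes (x axis) of the 10 genes (y axis) with 95% intervals in 3 panels, 1 per comparison, from edgeR's quasi-likelihood model of all livers, with filled points where the adjusted p was under 0.05. Marco at 3.13 and Spic at 1.52 are filled in GB-IL against DIO, and no point is filled in the other panels.

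GB-IL and RYGB were also compared directly, since both groups had an operation on the gut. None of the 10 genes was called by edgeR, and 0% of all genes were, while 2 of 10 had an unadjusted p under 0.05. Spic was higher in GB-IL by 1.62 ± 0.376 on the log2 scale (unadjusted p = 0.000646, adjusted p = 0.0807), and was the 1 gene of the 10 whose livers did not overlap, against 1.27% of all genes higher and 1.57% lower without overlap. Id3 was higher by 1.63 ± 0.472 (adjusted p = 0.105), and by 0.56 without GB-IL liver 1. DESeq2 called both, with 5.93% of all genes, and voom with sample quality weights called Spic, with 0.807%. Marco differed by 1.44 (interval -0.18 to 3.07, adjusted p = 0.273).

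In RYGB against DIO, 6 fold changes were positive and 4 negative, with a median of 0.13 against 0.01 over all genes. Marco alone had an unadjusted p under 0.05, and no gene of the 10 was apart in all livers, where 1.87% of all genes were higher and 1.66% lower without overlap. DESeq2 and voom also called none. RYGB liver 1 was the highest of its group for Clec4f, Vsig4, Timd4, Marco, Cd5l, Folr2, Csf1r and Id3, and RYGB liver 5 for Cd163 and Spic. GB-IL and RYGB were set against the same 5 DIO livers, so their fold changes are not independent of each other.

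Other genes of the Kupffer cell programme were taken from lists of well-known genes. Of 15 further Kupffer cell genes 3 rose in GB-IL against DIO and none fell, with a median log2 fold change of 0.56. Cd207, the lectin langerin, rose by 2.67 (adjusted p = 0.0278), and Clec1b, the podoplanin receptor CLEC-2, rose by 0.91 (adjusted p = 0.0351). The third, named after its value was seen, was Hmox1, which breaks down haem and rose by 1.76 (adjusted p = 0.0437). Several on this list, such as Xdh at -0.34 (adjusted p = 0.296) and C6, a complement component, at -0.73 (adjusted p = 0.474), are expressed by hepatocytes as well.

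Of 15 transcription factors tied to Kupffer cells, 3 rose and none fell, with a median of 0.15. Runx1, a factor of blood cell lineages, rose by 2.18 (adjusted p = 0.0314), and Spi1, which encodes the macrophage master factor PU.1, rose by 1.46 (adjusted p = 0.0365). Id1, a relative of Id3 and named after its value was seen, rose by 2.37 (adjusted p = 0.0474). Its level was 16.2 ± 18.9 CPM in GB-IL and 3.14 ± 1.57 in DIO (mean ± SD). For all 3 factors the GB-IL and DIO livers overlapped. Rxra, the partner of LXRα, was at -0.13 (adjusted p = 0.679). Cebpa, which hepatocytes also use, was at -0.85 (adjusted p = 0.149), with every GB-IL liver below every DIO liver. It was the 1 factor of the 15 without overlap, where 1.51% of all genes were lower without overlap.

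Of 13 genes for signals of the niche, such as CSF1, Notch ligands, TGFβ and BMPs, none was called by edgeR, and 2 had an unadjusted p under 0.05. These were Tgfb1, at 0.83 on the log2 scale (adjusted p = 0.118), and Acvrl1, the BMP9 receptor ALK1, at 0.67 (adjusted p = 0.211). Notch2 (0.01) and Eng (0.07), the endothelial co-receptor endoglin, had the highest levels on the list. The median over the list was 0.01.

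Of 16 genes that work beside these receptors in scavenging and the uptake of dead cells, 4 rose in GB-IL and none fell. Hpx and Hp, the plasma proteins that carry haem and haemoglobin and are made by hepatocytes, rose by 2.54 and 2.19 (adjusted p = 0.0278 and 0.0375), while Cd163, the receptor for the haptoglobin complex, stood at 0.00. The others were Sirpa, which is also on the pan-macrophage list below, at 1.51 (adjusted p = 0.0320), and Mfge8, a bridge to phosphatidylserine that was named after its value was seen, at 2.04 (adjusted p = 0.0398). None of the genes of these 4 lists was called in RYGB against DIO, where 0% of all genes were.

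Markers of other myeloid cells moved with GB-IL. Of 16 genes common to macrophages 10 rose, with a median log2 fold change of 1.41, with the smallest p for Ctss, the protease cathepsin S, at 1.81 and Lyz2, the lysozyme of macrophages and neutrophils, at 2.18 (both adjusted p = 0.0278). Their summed level lay between 420 and 684 CPM of the total count in DIO, between 833 and 2085 in GB-IL, with all 4 livers above DIO, and between 477 and 873 in RYGB. Adgre1, which encodes F4/80 and was named after its value was seen, was at 0.85 and was not called (adjusted p = 0.316). Its GB-IL livers split: livers 3 and 4 were above every DIO liver, liver 1 was below, and liver 2 was level with the lowest DIO livers. For monocytes 4 of 9 tested genes rose, among them Chil3 (9.11) and Plac8 (1.64), and the summed level was 18.2 to 39.3 CPM in DIO, 41.3 to 162 in GB-IL and 26.7 to 68.1 in RYGB. With sums this low, a change of 9.11 places Chil3 near 0 in DIO, so its size is poorly fixed. Genes of lipid-associated macrophages, which surround fat and scars, rose in 8 of 12 cases, with the smallest p for Spp1 (2.36), which is also on the cholangiocyte list, and Gpnmb (7.73), and with sums of 550 to 774, 779 to 1723 and 668 to 869 CPM in DIO, GB-IL and RYGB. Neutrophil genes rose in 5 of 8 cases, and their sum lay at 5.59 to 11.2 CPM in DIO, 6.93 to 431 in GB-IL, with GB-IL 3 the highest, and 7.97 to 154 in RYGB. The part of these cells in the rise of Marco and Spic was not tested.

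Markers of other cell types were also called in GB-IL. Cholangiocyte genes rose in 3 of 7 cases, with a summed level of 73.6 to 324 CPM in GB-IL against 47.5 to 75.6 in DIO and 3 of 4 livers above every DIO liver, and 1 of 10 stellate cell genes rose. Of 5 erythroid genes, 1 fell. No tested gene of the dendritic cell, B cell, T and NK cell, sinusoidal endothelial or hepatocyte lists was called by edgeR, with 0, 0, 0, 1 and 2 at an unadjusted p under 0.05. The hepatocyte sum nevertheless lay below every DIO liver in 3 of 4 GB-IL livers, at 84501 to 122869 CPM against 121746 to 139966. The part of these shifts in the values of the 10 genes was not tested. In RYGB against DIO no gene on any of these lists was called, and 0% of all genes were.

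**Figure D3:**
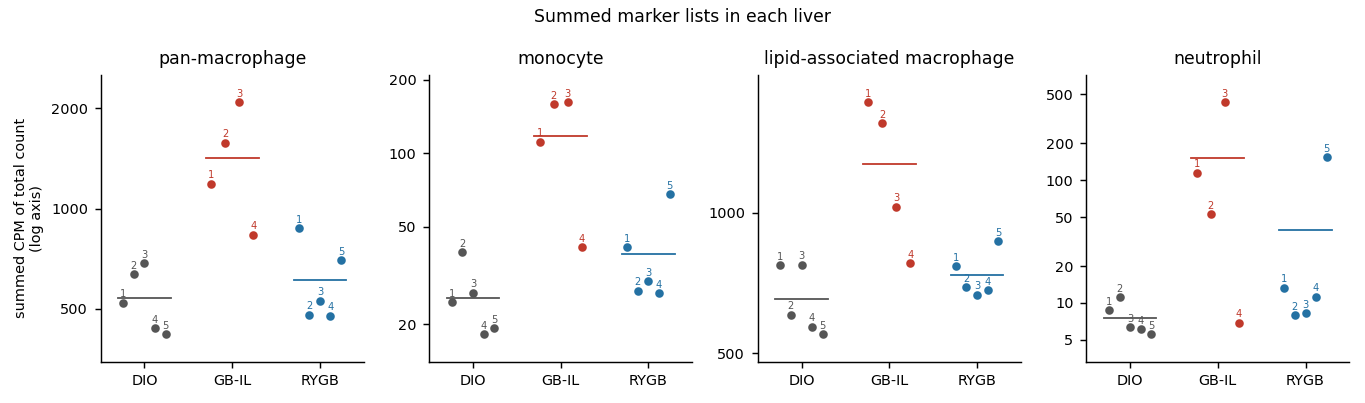
Summed CPM of the total count (log axis) of 4 myeloid marker lists in each liver, with liver numbers and a line at each group mean. All 4 GB-IL livers are above the DIO livers for the pan-macrophage, monocyte and lipid-associated lists, at least 833 against at most 684 CPM for the first, whereas GB-IL liver 4, at 6.93 CPM, is within the DIO range for neutrophil genes.

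Each of the 10 genes was then set against the summed count of the 16 pan-macrophage genes of the same liver, to describe it per macrophage RNA. Clec4f stood at 292, 240, 287, 352 and 298 per 1000 pan-macrophage counts in DIO livers. In GB-IL livers it stood at 33.1, 98.9, 127 and 175, and in RYGB livers at 261, 237, 288, 261 and 186. Every GB-IL liver was below every DIO liver on this scale, with GB-IL 1 the lowest and GB-IL 4 the nearest to DIO. Folr2 stood at 26.1 to 35.0 in DIO and at 3.38 to 21.9 in GB-IL, also without overlap. Vsig4 stood at 56.05 to 65.5 in DIO and at 23.2 to 56.02 in GB-IL, apart by a margin too small to count. In RYGB livers Vsig4 stood at 61.03 to 83.5, with 4 of 5 above every DIO liver, and Clec4f and Folr2 each had 2 of 5 below. These 3 of 10 genes were lower without overlap, against 37.6% of all genes, since the denominator itself rose in GB-IL and moved the median log2 ratio over all genes to -1.27. The count of 3 is therefore near that background.

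The other genes overlapped between GB-IL and DIO on this scale. Cd163 (6.46 to 34.2 against 26.3 to 73.1 in DIO) and Csf1r (54.8 to 116 against 112 to 147) each had 3 of 4 GB-IL livers below every DIO liver. Timd4 had 2 below, at 1.94 and 1.81 in livers 1 and 2 against 13.3 to 23.3 in DIO, and 1 above, at 25.7 in liver 4. Cd5l likewise had livers 1 and 2 below DIO, at 51.0 and 93.0 against 233 to 313, and liver 4 above, at 346. Spic kept pace with the pan-macrophage genes, at 3.82 to 8.24 in GB-IL and 4.71 to 7.21 in DIO. Marco ran ahead of them in 3 of 4 GB-IL livers, at 80.6 to 245 against 24.02 to 98.2 in DIO. Id3 was at 9.95 to 110 against 20.7 to 73.8.

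The count, and the share of all genes beside it, changed with the denominator. Per summed C1qa, C1qb and C1qc, Clec4f alone was below every DIO liver, against 12.9% of all genes, and without Lyz2 in the list Clec4f and Folr2 were, against 34.8%. Per Adgre1 count none of the 10 was lower, against 4.76% of all genes, and Adgre1 itself split among the GB-IL livers. Marco was higher per Adgre1 count in every GB-IL liver, but by a margin too small to count. It stood at 1656 or more per 1000 against 1637 or less in DIO. The 0.00702% of all genes higher without overlap on this scale is Marco itself, 1 gene of 14252. In the fit that takes the pan-macrophage sum as library size, Clec4f, Vsig4, Cd163 and Folr2 were called lower and Marco higher in GB-IL against DIO, at log2 fold changes of -1.44, -0.72, -1.42, -1.26 and 1.63, in a table with 73.7% of all genes called and a median over all genes of -1.27. Relative to that median, Clec4f, Cd163 and Folr2 had moved by little, and Vsig4 was above it.

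**Figure D4:**
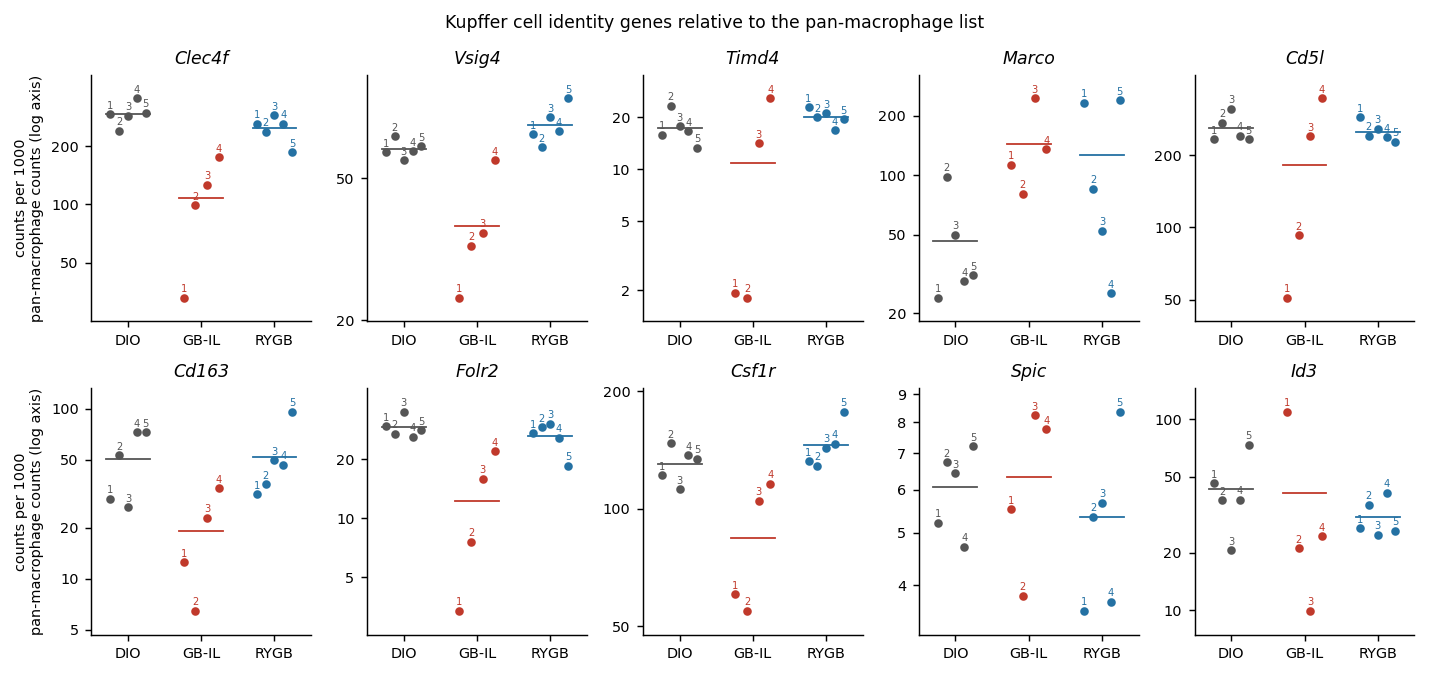
Counts of each gene per 1000 counts of the 16 pan-macrophage genes (log axis) in each liver, with liver numbers and a line at each group mean. Clec4f at 33.1 to 175 and Folr2 at 3.38 to 21.9 lie below all DIO livers in the 4 GB-IL livers, while Spic overlaps and Marco lies above DIO in 3 of 4.

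Across the 14 livers the 10 genes did not vary as 1 block. The values that follow are Pearson correlations of log2 CPM, given as descriptions, and all points share their library's depth and composition. They also hold differences between group means. With group means subtracted, Clec4f with Vsig4 went from 0.59 to 0.81, while Clec4f with Cd163 stayed low (0.29 and 0.28). On that scale Id3 was negative with every other gene of the 10, and all other pairs were positive. Clec4f varied most closely with Folr2 (0.94), Cd5l with Folr2 (0.89) and Vsig4 with Csf1r (0.93). Marco and Spic varied together (0.83) and each with the pan-macrophage sum (0.84 and 0.88), as did Csf1r (0.78) and Vsig4 (0.74). Clec4f (0.16), Folr2 (0.18), Timd4 (0.04) and Cd163 (-0.05) had lower Pearson values with that sum, while their Spearman values were 0.45, 0.35, 0.32 and -0.04. Id3 had Pearson values of -0.65, -0.65 and -0.66 with Clec4f, Timd4 and Folr2, but Spearman values of -0.0022, -0.39 and -0.24, and GB-IL liver 1 was the highest of all for Id3 and the lowest for these 3 genes.

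Outside the 10, the gene whose pattern over the 14 livers was nearest to Clec4f was Scimp (Pearson correlation 0.96), which was also the second nearest to Folr2 (0.94). The nearest gene was Pilra for Vsig4 (0.95), Cd86 for Timd4 (0.95), Nrros for Marco (0.93), Treml4 for Cd5l (0.95), Il18bp for Csf1r (0.95) and Igsf6 for Spic (0.95). Fgd2 was the nearest to Folr2 (0.94) and Rhoq to Cd163 (0.90). For Id3 it was A530013C23Rik (0.94), a value that fell to 0.68 without GB-IL livers 1 and 2, whereas that of Cd86 with Timd4 was 0.92 without the same livers. The second nearest were Nagk for Clec4f (0.94), Tifab for Vsig4 (0.94), Emr4 for Timd4 (0.95), Adap1 for Marco (0.92), Siglece for Cd5l (0.94), Eif4e3 for Cd163 (0.90), Was for Csf1r (0.95) and Fpr2 for Spic (0.94). For Id3 it was Fam214b (0.93), a value that fell to 0.49 without GB-IL livers 1 and 2.

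The 250 bases before the transcription start in RefSeq (GRCm38.p6) were searched in 9 of the 10 genes for letters that PU.1 is known to bind and for E-boxes, on both strands. Those of 3 genes are shown, Marco because it rose, and Vsig4 and Cd5l as a receptor and a secreted product that were not called, each with a RefSeq start within 1 base of that of GENCODE. Capitals mark the PU.1 core GAGGAA or its reverse complement.
Marco upstream window, chr1:120505025-120505274, minus strand: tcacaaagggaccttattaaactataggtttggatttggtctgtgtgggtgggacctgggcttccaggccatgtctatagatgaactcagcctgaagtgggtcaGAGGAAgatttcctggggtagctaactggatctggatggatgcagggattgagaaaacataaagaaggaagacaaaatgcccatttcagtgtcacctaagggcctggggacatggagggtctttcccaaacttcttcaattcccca
Vsig4 upstream window, chrX:96293439-96293688, minus strand: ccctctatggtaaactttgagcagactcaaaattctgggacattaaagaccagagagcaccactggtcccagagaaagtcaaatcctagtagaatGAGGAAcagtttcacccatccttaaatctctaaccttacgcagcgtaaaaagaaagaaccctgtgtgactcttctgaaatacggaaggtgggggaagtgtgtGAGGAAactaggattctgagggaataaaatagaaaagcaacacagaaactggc
Cd5l upstream window, chr3:87357631-87357880, plus strand: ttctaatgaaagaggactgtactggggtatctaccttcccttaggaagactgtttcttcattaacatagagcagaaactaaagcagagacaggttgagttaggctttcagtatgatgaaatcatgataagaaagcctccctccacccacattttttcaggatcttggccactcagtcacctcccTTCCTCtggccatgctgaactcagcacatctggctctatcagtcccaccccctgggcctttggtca
The PU.1 core was in the windows of 4 of 9 genes (Marco, Vsig4, Cd5l and Id3) and in 23.3% of 32851 mouse promoter windows of the same length. In Marco the core lay 146 bases before the start, in Vsig4 155 and 53, and in Cd5l 66. The longer PU.1 letters GAGGAAGT were in the windows of none of the 9 genes (2.44% of all windows). Nor were the E-box CAGCTG (13%) or CACGTG, the letters of TFE factors (6.02%). Folr2 has 2 windows, and CACCTG was in 1 of them (17.2%). Of the 2 genes that rose, Marco had the core and Spic did not, but their windows are not alike. The Spic window (chr10:88683024-88683273), taken at its RefSeq start, lies inside the gene as GENCODE gives it. The bases before the GENCODE start of Spic were not searched. The Id3 window (chr4:136143572-136143821) also lies inside its GENCODE gene. A match describes letters in a window and shows no binding.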

How the data were processed

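Whole-liver RNA of 14 mice was amplified (NuGEN Ovation) and sequenced on the Illumina HiSeq by the authors, who used TopHat 2 for alignment to mm10 and HTSeq for the count of each gene. The values the authors deposited are raw counts per gene, without normalization. Which versions, annotation and strand option they used is not given in the sources used here, and the labels name a pair of stranded TruSeq kits without tying them to livers, so that kit and group could not be separated. Samples were grouped by their titles. With each liver labelled as 1 mouse, p-values measure the spread between these mice.

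Genes were filtered by edgeR's filterByExpr by group (14252 of 25212 tested), scaled by TMM and fitted with edgeR 4.0.16 (glmQLFit, glmQLFTest; R 4.3.3) in 1 model of the 3 groups, with Benjamini-Hochberg adjustment over all genes tested. The test was checked on simulated counts with planted changes and independent noise. These held no liver-wide departures such as those of GB-IL livers 1 and 2, so the check does not cover them. RPKM used the union of exons in GENCODE M21 (GRCm38), to which 24701 identifiers matched. Correlations used log2 CPM with a prior count of 2. Sums of marker lists are CPM of the total count. Adgre1 and Chil3 were matched by identifier, being listed under older symbols. Alternatives were RLE scaling, DESeq2 1.42.0, limma 3.58.1 (voom with sample quality weights), no filter, a replicate block, a model of only the compared groups, the pan-macrophage sum as library size and each liver left out in turn. Other denominators for the counts per macrophage, and leaving out GB-IL livers 1 and 2 together, were chosen after seeing the data.

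The 10 genes and 16 other lists were chosen with earlier results of these data known. By rule, the text names all 10 genes, the 2 genes most correlated with each, and at most 4 of each list (the smallest p in GB-IL against DIO and the highest mean); other names are said to follow their values. No sequence is given for Csf1r, and the results of 1 of the motifs searched are not reported here. Plots used matplotlib 3.10.9.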

Additional observations from a re-analysis of the deposited data

Results flagged for a closer look

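In each group of 4 or 5 livers the highest and the lowest were compared with their neighbours for each of the 10 genes, and 6 of 30 groups held a liver far from the rest by Dixon's test (gap over range above 0.829 for 4 livers and 0.71 for 5). For normally distributed values, chance alone gives such a liver in about 5% of groups. Here the values were CPM without a log, each flagged liver was the highest of its group, and the genes are not independent. The count of 6 therefore cannot be set against that share. In GB-IL, liver 3 stood apart for Marco (542 CPM, against 109 to 144 in the other 3), Csf1r (232 CPM, against 77.1 to 93.9) and Spic (18.2 CPM, against 6.23 to 7.04). GB-IL liver 1 stood apart for Id3 (140 CPM, against 19.7 to 36.3). In RYGB, liver 1 stood apart for Cd5l (251 CPM, against 109 to 142) and liver 5 for Cd163 (59.7 CPM, against 16.3 to 27.4). No DIO liver stood apart.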

How the results depend on the processing

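In GB-IL against DIO, 2 of the 10 genes were called. RLE scaling, DESeq2, voom with sample quality weights and no filter called 2 or 3. A fit of the compared groups only called 0, the pan-macrophage sum as library size called 5, and leaving out GB-IL livers 1 and 2 together called 0. Leaving out 1 liver gave 0 to 3 genes: 0 without any 1 of the DIO livers, GB-IL 1, 2 or 3, or RYGB 2 or 3, 1 (Marco) without RYGB 1, and 3 without GB-IL 4. Over these single omissions the adjusted p ran from 0.0120 to 0.126 for Marco and from 0.00931 to 0.111 for Spic. Between GB-IL and RYGB the count of 0 became 2 with DESeq2, 1 with voom and 0 to 2 with 1 liver left out. It became 5 (all lower) with the pan-macrophage sum, which was 833 to 2085 CPM in GB-IL and 477 to 873 in RYGB. A larger denominator lowers every gene. Shares over all genes for that fit and for the omissions are not given here, so these counts are not results about the 10 genes. RYGB against DIO had 0 in every alternative. Genes without overlap in GB-IL against DIO numbered 2, 2 to 4 with 1 liver left out and 6 without GB-IL 1 and 2, and against RYGB 1, 1 to 2 and 3. Such omissions make overlap rarer for all genes: higher without overlap than DIO were 380 of all genes with every liver, 466 without GB-IL 1 (4 of the 10) and 925 without GB-IL 1 and 2, and higher than RYGB 181, 526 without RYGB 1 (2 of the 10) and 882. Per pan-macrophage count, the 3 genes below DIO became 1 per C1q count and 0 per Adgre1, while the share of all genes fell from 37.6% to 12.9% and 4.76%. With 1 liver left out the 3 genes became 3 to 5, and the share over all genes for those omissions is not given here. The causes were not tested.

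Livers of the same number showed no common variation (correlations of -0.38 to 0.38 over 13 pairs, 2 above 0.1). No pairing by number was seen, though so few pairs could miss a shared batch. With the replicate block 0 of 10 genes were called in GB-IL against DIO. The block turned Clec4f to -0.15 and Folr2 to -0.070 against DIO, and Clec4f to -0.038, Folr2 to -0.051 and Timd4 to -0.15 against RYGB.

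Changes of sign otherwise concerned fold changes that were not called in the main fit. Some were called with the opposite sign when the pan-macrophage sum was the library size. These were Clec4f, Vsig4, Cd163 and Folr2 against DIO, and Clec4f, Vsig4, Folr2 and Csf1r against RYGB. In GB-IL against DIO, Clec4f and Cd163 went to -0.011 and -0.011 with DESeq2, to -0.011 and -0.0099 with RLE, to -0.019 and -0.016 with no filter, and to -0.015 and -0.015 in the fit of the compared groups only. With the pan-macrophage sum as library size, log2 fold changes against DIO were -1.44 for Clec4f, -0.72 for Vsig4, -0.67 for Timd4, -0.51 for Cd5l, -1.42 for Cd163, -1.26 for Folr2, -0.64 for Csf1r and -0.069 for Id3, against RYGB -1.19 for Clec4f, -0.94 for Vsig4, -0.88 for Timd4, -0.46 for Cd5l, -1.10 for Folr2 and -0.80 for Csf1r, and for Cd5l in RYGB against DIO -0.045. With voom, Cd163 was 0.47 in GB-IL against RYGB and -0.23 in RYGB against DIO, and Folr2 was 0.026 in RYGB against DIO. Without GB-IL 1 and 2, Cd163 was 0.33 against RYGB and Id3 was -0.11 against DIO.

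With 1 liver left out, ranges crossed 0 in GB-IL against DIO for Clec4f (-0.42 to 0.31), Cd163 (-0.53 to 0.24), Folr2 (-0.46 to 0.43) and Timd4 (-0.13 to 0.91), in GB-IL against RYGB for Clec4f (-0.29 to 0.44), Cd163 (-0.74 to 0.17), Folr2 (-0.38 to 0.51) and Timd4 (-0.45 to 0.60), and in RYGB against DIO for Cd163 (-0.18 to 0.37), Cd5l (-0.21 to 0.26), Folr2 (-0.29 to 0.12) and Spic (-0.37 to 0.053). With 4 GB-IL livers that differ this much from each other, changes the size of the intervals printed for Clec4f, Timd4, Cd163 and Folr2 could not be detected. Kit, operation and weight loss cannot be told apart from the groups.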
